A study of Mus musculus with 16 samples.

Results

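Entinostat was compared with vehicle after 10 days of dosing in CD8 T cells taken from mouse mammary tumours. BALB/c mice carried tumours of TS/A, a mouse mammary adenocarcinoma cell line, grown from cells injected into a mammary fat pad. From day 7 after the injection they received entinostat at 20 mg/kg or vehicle every day, and the tumours compared here were taken at day 17. Live cells that stained for CD45.2 and CD8 and not for CD4 were sorted, and their total RNA was turned into amplified full-length cDNA and sequenced. Each treatment had 4 libraries at day 17, so 8 of the 16 libraries of the series were compared. The other 8 (vehicle and entinostat at day 10) entered only the estimate of spread, the scaling and the filter on low counts. All animals bore the same tumour line and strain, and their age and sex are not given in the labels. Whether each of the 4 libraries of a treatment stands for an animal of its own is not stated in the labels, so p-values here speak only of the variation among these samples, some of which may be technical. Genes were followed where the mean over the 8 day 17 libraries was at least 16 counts per 1000000 (CPM), which 10083 of 24028 genes were. Just inside that limit lay Fgf16 and Eml1, and just outside it lay Ptpro and Cnr1, the latter at 3.06 CPM with vehicle and 28.9 CPM with entinostat. One gene of at least 16 CPM, the haemoglobin gene Hba-a2, failed the filter on low counts, since 139.2 CPM in a single vehicle library set its mean, and 10082 were tested.

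Entinostat is an oral benzamide that inhibits class I histone deacetylases (HDACs), enzymes that remove acetyl groups from histone tails and from other proteins. Acetylated histones mark open, transcribed chromatin, and HDAC inhibitors raise some transcripts and lower others. CD8 T cells kill tumour cells by releasing perforin and granzymes from granules and by secreting cytokines such as interferon gamma. In tumours they also acquire inhibitory receptors, among them PD-1 and TIM-3, and lose molecules of the naive and memory state. The series takes up how long HDAC inhibition must last to alter the division and the effector program of such cells.

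Total counts were 2842099 to 6975904 in the vehicle libraries and 554593 to 3530961 in the entinostat libraries, the lowest being entinostat replicate 3. The counts of the most abundant transcripts did not follow that depth: Actb had 1618 counts in entinostat replicate 3, which made 2684 CPM, and 2485 to 3265 counts in the other 7 libraries, which made 491.2 to 852.2 CPM, the lowest of these in vehicle replicate 1, the deepest library. What was done upstream to the counts of abundant transcripts, such as the removal of duplicate reads, is not given in the sources used here, so the CPM and fold changes of abundant genes are less certain in every library. Actb CPM tended to be higher in shallower libraries, and the entinostat libraries were mostly the shallower ones. Rises of abundant genes with entinostat may thus be overstated, which was not tested. High CPM values of abundant genes in entinostat replicate 3 are therefore also given without that library where it decided a call. Reads unrelated to expression were gauged from the olfactory and vomeronasal receptors, sensory genes silent in lymphocytes. They amounted to 3281 ± 2025 CPM (SD, n = 4) in the vehicle group and to 5215 ± 1352 CPM in the entinostat group. That difference of 1934 CPM did not pass (exact permutation test, 2-sided p = 0.171, the smallest possible being 0.0286).

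The sorted cells carried the transcripts of CD8 T cells in both groups, and also, at a higher level with vehicle, those of plasmacytoid dendritic cells, the specialised producers of type I interferon. All 10 CD8 T cell markers of at least 16 CPM (Cd3d, Cd3e, Cd3g, Cd247, Cd8a, Cd8b1, Lck, Cd2, Thy1 and Ptprc) had log2 fold changes above 0 with a median of 0.29. With edgeR 0 of them passed, though 6 had an unadjusted p under 0.05, and 7 passed with DESeq2 and 0 with limma-voom. Their summed level was 3151 to 3883 CPM with vehicle and 3387 to 5620 CPM with entinostat, the highest in entinostat replicate 3. Cd8a, a chain of the CD8 co-receptor, had 349, 348, 368 and 414 CPM in vehicle replicates 1 to 4 and 410.0, 440.5, 591 and 328 CPM in entinostat replicates 1 to 4. The groups overlapped, and the log2 fold change was 0.24 ± 0.13 (SE; edgeR adjusted p = 0.196). It passed in the fits with DESeq2 (adjusted p = 0.0459), with library size alone (edgeR adjusted p = 0.0441), with only genes of at least 16 CPM fitted (0.0441), with cyclic loess scaling (limma-voom adjusted p = 0.0402) and without entinostat replicate 4 (edgeR adjusted p = 0.0347). Up to 8 of the 10 CD8 markers were called higher in an alternative (with cyclic loess, for example), as were 7 without entinostat replicate 4, 5 without vehicle replicate 4 and 1 without entinostat replicate 2.

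Of 18 plasmacytoid dendritic cell markers, 17 had at least 16 CPM and all 17 fell, against 21.1% over all genes of that abundance. The median log2 fold change of these markers was −2.81. Their summed level was 3629 to 4357 CPM with vehicle and 953.9 to 1148 CPM with entinostat. Siglech, the defining lectin of these cells (chromosome 7, 55768154 to 55779448, GRCm38, Entrez 233274), had 371, 431, 483 and 501 CPM with vehicle and 46.0, 36.6, 28.2 and 72.6 CPM with entinostat. Every vehicle library was above every entinostat library, and the log2 fold change was −3.21 ± 0.31 (edgeR adjusted p = 1.86e-06). Spib, a transcription factor of this lineage, had 179, 159, 186 and 177 CPM with vehicle and 9.65, 7.00, 0 and 10.5 CPM with entinostat, so that it was at 0 in the shallow entinostat library and at or below 10.5 CPM in the others. It fell by 4.42 ± 0.50 on the log2 scale (edgeR adjusted p = 1.01e-05). Paqr5, a membrane steroid receptor, fell by 4.32 ± 0.39, Cox6a2, a subunit of cytochrome oxidase, fell by 4.16 ± 0.39, Rnase6, a secreted ribonuclease, fell by 3.31 ± 0.23, and Pld4, an endolysosomal exonuclease, fell by 2.81 ± 0.21. In sorted bulk RNA, fewer cells of a type and less RNA per cell cannot be told apart.

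Markers of several other cell types fell as well, and those of CD4 and regulatory T cells moved both ways. Of 11 myeloid markers of at least 16 CPM, 8 fell and 1, Itgam, rose. Those were 72.7% and 9.09%, against 21.1% and 3.82% over all genes of that abundance. The summed level of the list was 1089 to 1435 CPM with vehicle and 360 to 453.4 CPM with entinostat. Cybb, a subunit of the phagocyte oxidase, fell by 2.96 ± 0.25, Cd68, a lysosomal glycoprotein, fell by 2.57 ± 0.25 and Spi1, the transcription factor PU.1, fell by 4.85 ± 0.62. Itgam is taken up with the integrins. The defining macrophage genes C1qa, C1qb and C1qc stood at 3.5 CPM or less in each of the 8 libraries, and Adgre1, the F4/80 antigen, was between 0.90 and 9.16 CPM. Of 9 conventional dendritic cell markers 5 fell (55.6%, against the same 21.1%), with Flt3, a receptor for a dendritic cell growth factor, at −3.45 ± 0.39. Of 3 B and plasma cell markers Blnk, an adaptor of B cell signalling, fell by 2.81 ± 0.41 and Mzb1, a chaperone of immunoglobulin assembly, fell by 2.63 ± 0.41. These 2 were 66.7% of that list, against the same 21.1%. Of 10 CD4 and regulatory T cell markers 2 rose (Ctla4 and Il2ra, which activated CD8 T cells carry too) and 2 fell (Cd4 and Cd40lg). Those were 20% each way, against 3.82% higher and 21.1% lower over all genes of at least 16 CPM. Both rises and the fall of Cd4 held in each of 21 alternative fits. The summed level of that list overlapped between the groups, at 667.6 to 1094 CPM with vehicle and 800.9 to 1106 CPM with entinostat. Foxp3, the factor of regulatory T cells, was not called. Cd4, whose product the sort excluded, had 43.8, 50.03, 54.8 and 43.9 CPM with vehicle and 5.47, 6.73, 9.95 and 7.80 CPM with entinostat. It fell by 2.75 ± 0.33 (edgeR adjusted p = 2.03e-05), with no overlap between the groups. Of 12 markers of stroma, endothelium and tumour epithelium, 4 fell and 1, Vwf, rose (33.3% and 8.33%, against 21.1% and 3.82% over all genes of at least 16 CPM). The reads per kilobase of Vwf were under 3 times those of the receptor genes. Col1a1, a fibroblast collagen, had 106, 239.8, 399.9 and 294 CPM with vehicle and 108, 79.2, 141 and 278 CPM with entinostat, and was not called (−0.77 ± 1.15) except by limma-voom with sample weights (adjusted p = 0.042). Cdh1, an epithelial cadherin that dendritic cells also carry, fell by 1.41 ± 0.18. The part of these other transcripts in the results below was not tested. The lower levels of dendritic cell and myeloid markers with entinostat stand beside every fall described below, and they are repeated only next to some of the groups. CPM are shares of a library, so these lower levels stand beside every rise as well. So does the median of 0.29 of the CD8 T cell markers, and a rise per CD8 T cell was not tested.

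**Figure D1:**
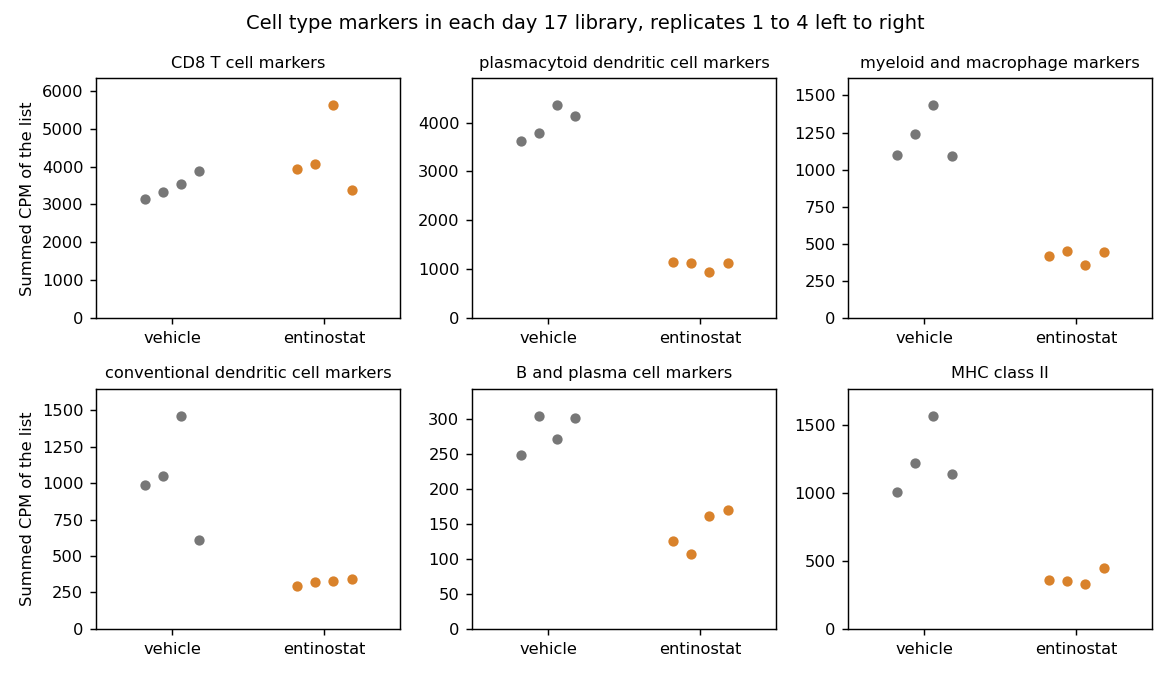
Summed level (CPM) of 5 lists of cell type markers and of MHC class II genes in each day 17 library, grey for vehicle and orange for entinostat, with 1 point per library and axes from 0. Plasmacytoid dendritic cell markers sum to 3629 to 4357 CPM with vehicle and to 953.9 to 1148 CPM with entinostat, while the CD8 T cell markers overlap between the groups.

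More genes fell than rose under the scaling used here. A gene is called where its adjusted p is under 0.05 over all 17414 genes tested, of which 18.3% were called, 5.29% higher and 13% lower with entinostat. Of the 10082 genes of at least 16 CPM, 2516 were called, or 25%, with 385 higher (3.82%) and 2131 lower (21.1%). Changes above 2-fold were called in 194 of the higher and 556 of the lower genes, and above 8-fold in 13 and 57. Library values did not overlap between the groups for 306 of the genes called higher and 1700 of those called lower, and over all genes of at least 16 CPM for 26.1%. Of the genes called higher, 48 were not above 3 times the per-kilobase level of the olfactory and vomeronasal receptor genes, as were 11 of those called lower. Among the 7332 tested genes under 16 CPM the split was the other way, with 537 higher and 137 lower, beside 5.29% and 13% over all genes tested. Their median log2 fold change was 0.65. The CPM per kilobase of the receptor genes were 0.611 with vehicle and 0.89 with entinostat. The part of reads unrelated to expression in these low-level rises was not tested.

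The split between genes called higher and lower depends on how the libraries are set to a common scale. TMM, the scaling used, placed the median log2 fold change of genes of at least 16 CPM at −0.20. That median differed with abundance. It was −0.07 among genes of 16 to 32 CPM and 0.10 among the 62 most abundant genes. In the abundance classes between these it lay between −0.25 and −0.05. The share called lower was 9.81% at 16 to 32 CPM, up to 29.9% in the classes between, and 1.61% among those 62 genes. A log2 fold change below is thus to be read against genes of like abundance, and −0.20 describes only the whole set. With TMM 84.7% of the called genes were lower. The share was 72.5% with RLE scaling, 68.7% with DESeq2 and 63.9% with library size alone, where the median was −0.05. It was 61.1% with a minimum count of 50 and 57.6% where only genes of at least 16 CPM entered the fit. With cyclic loess, a scaling that depends on abundance, 1033 genes were higher and 949 lower, or 47.9% lower, with a median of 0.03. The total of 2516 calls was 1610 without vehicle replicate 1. Lower calls fell from 2131 to 1275 without vehicle replicate 1 and to 1336 without entinostat replicate 4, and higher calls from 385 to 244 without vehicle replicate 3. In the fit and in each of 21 alternatives to it, 120 genes were called higher and 749 lower, and such calls are named below as held in every fit.

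**Figure D2:**
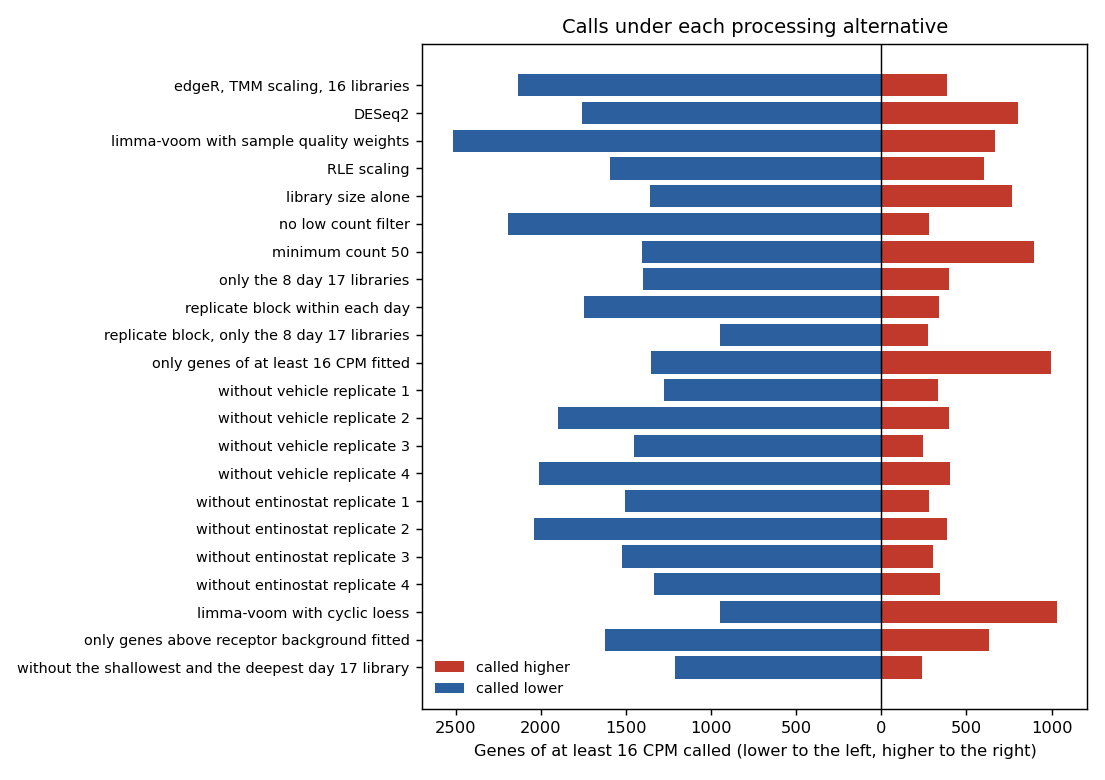
Number of genes of at least 16 CPM called higher (red, to the right of 0) and lower (blue, to the left of 0) with entinostat in the fit used and in 21 alternatives, 1 bar pair per fit. The fit used calls 385 higher and 2131 lower, and cyclic loess scaling calls 1033 higher and 949 lower.

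The genes with the largest rises and falls came from different kinds of transcript. Ccl9, a chemokine (chromosome 11, 83572917 to 83578636, Entrez 20308), had 3.01, 10.9, 1.54 and 0.343 CPM with vehicle and 161, 196, 305 and 228 CPM with entinostat. All 4 entinostat libraries were far above all 4 vehicle libraries, and the log2 fold change was 5.78 ± 0.62 (edgeR adjusted p = 6.78e-06), or 6.86 without vehicle replicate 2. The other 9 of the 10 largest rises were Gzmc, Gzmd, Gzme and Gzmf, granzymes of 1 gene cluster, Serpinb9b, a serpin, Fcrl6, a receptor of cytotoxic cells, Siglec1, a sialic acid-binding lectin, Ppp2r2c, a phosphatase subunit, and Filip1, a filamin-binding protein. Fcrl6 stood at 16.8, 2.12, 0.515 and 5.83 CPM with vehicle and 81.7, 109, 31.5 and 69.2 CPM with entinostat and rose by 3.49 ± 0.66, or by 4.78 without vehicle replicate 1. Siglec1 rose from 2.89 ± 1.27 to 32.3 ± 6.47 CPM, Ppp2r2c from 3.30 ± 1.95 to 34.3 ± 20.1 CPM and Filip1 from 3.84 ± 0.778 to 39.9 ± 18.1 CPM. Among the 10 largest falls, Spib, Paqr5 and Cox6a2 are on the plasmacytoid dendritic cell list and Spi1 on the myeloid list. The others were Dll4, a Notch ligand, at −5.25 ± 0.89, Klk4, a kallikrein protease, at −5.22 ± 0.67, Slc27a3, an acyl-CoA synthetase, at −5.17 ± 0.69, Cfp, the complement factor properdin, at −4.75 ± 0.53, Plbd1, a phospholipase B-like protein, at −4.25 ± 0.81, and Cdh22, a cadherin, at −4.22 ± 0.64. Without single libraries Dll4 ran from −4.59 (without entinostat replicate 2) to −5.84 (without entinostat replicate 3), Klk4 from −4.62 (without entinostat replicate 2) to −5.99 (without entinostat replicate 4), and Slc27a3 was at −6.01 without entinostat replicate 4. Cyclic loess ended the call of Plbd1 (limma-voom adjusted p = 0.0714).

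In CPM rather than in fold, the largest called rises were those of Gzmb and Prf1, and Il2rb, Ctsd and Ldha were among the next 4. The limit that depth sets on abundant genes applies to these rises. Ctsd, a lysosomal protease, had 325, 374, 388 and 355 CPM with vehicle and 558, 581, 859 and 477 CPM with entinostat, without overlap, and rose by 0.76 ± 0.14 (edgeR adjusted p = 7.60e-04). The largest falls in CPM were those of Mpeg1, a pore-forming protein of phagocytes, from 659 ± 95.8 to 123 ± 53.1 CPM, Siglech, Grn, the lysosomal protein progranulin, from 533 ± 83.1 to 149 ± 23.8 CPM, Csf2rb2, a cytokine receptor chain, from 381 ± 50.4 to 22.9 ± 12.9 CPM, Psap, a lysosomal activator protein, from 615 ± 99.5 to 277 ± 20.5 CPM, and Cybb. Csf2rb2 had 351, 366, 456 and 351 CPM in the vehicle libraries and 12.2, 14.0, 24.9 and 40.4 CPM in the entinostat libraries, a log2 fold change of −4.10 ± 0.45. Every vehicle value of these 6 genes lay above every entinostat value.

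**Figure D3:**
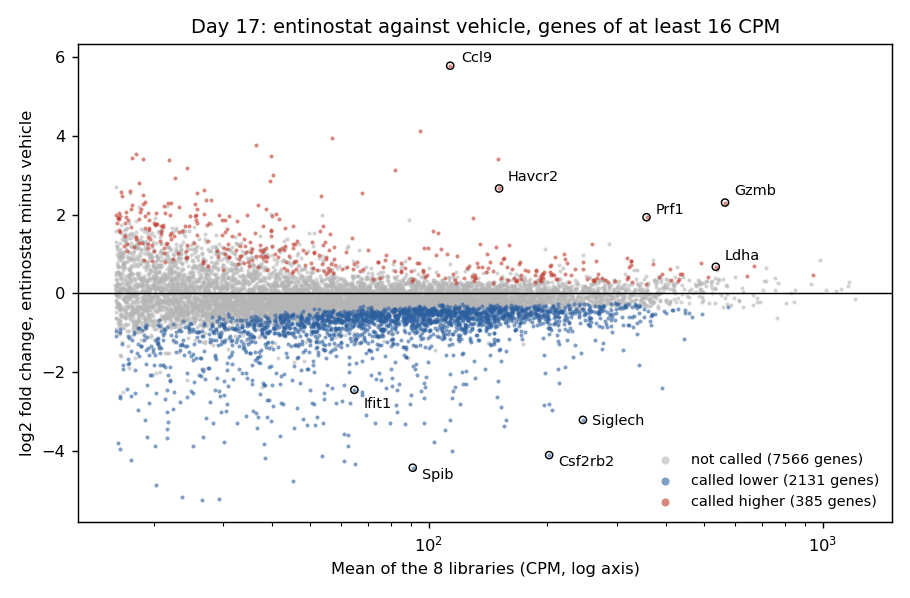
Log2 fold change (entinostat minus vehicle) of each of the 10082 genes against its mean over the 8 libraries in CPM on a log axis, 1 point per gene, red for called higher, blue for called lower and grey for not called, with 9 genes named. Called falls outnumber called rises (2131 against 385) in the TMM scaling, and Ccl9 stands apart at the top.

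Granule genes stood out among those that rose, a description and not a test of the list. Of 21 cytotoxic granule genes of at least 16 CPM, 10 rose and 3 fell, with a median log2 fold change of 0.43, against 3.82% higher, 21.1% lower and a median of −0.20 over all genes of that abundance, and 7 rises and 1 fall held in every fit. Prf1, which encodes the pore-forming protein perforin, had 183, 149, 143 and 114 CPM in vehicle replicates 1 to 4 and 561, 639.8, 639 and 427 CPM in entinostat replicates 1 to 4. The lowest entinostat library was above the highest vehicle library, and the log2 fold change was 1.93 ± 0.15 (edgeR adjusted p = 3.62e-07). Gzmb, granzyme B (chromosome 14, 56258836 to 56262334, Entrez 14939), had 210.3, 194, 196 and 148 CPM and 737, 629, 1719 and 686 CPM in the same order. Entinostat replicate 3, the shallow library, held the highest value, the other 3 also lay above all vehicle libraries, and the log2 fold change was 2.31 ± 0.26 (edgeR adjusted p = 9.61e-06). Gzma, granzyme A, had 88.6, 96.4, 69.5 and 60.0 CPM with vehicle and 252, 149, 222 and 139 CPM with entinostat and rose by 1.25 ± 0.19.

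The granzymes Gzmc to Gzmf were low with vehicle and higher in every entinostat library. Gzmc had 54.2, 13.5, 19.6 and 11.3 CPM with vehicle and 310.3, 236, 323 and 231 CPM with entinostat, a log2 fold change of 3.41 ± 0.63. Gzmf had 34.0, 0, 1.03 and 2.74 CPM and 227, 203, 144 and 148 CPM, a log2 fold change of 4.12 ± 0.91. Vehicle replicate 1 was the highest vehicle library for each of Gzmc, Gzmd, Gzme and Gzmf, and every entinostat library was above it. Gzme rose by 3.95 ± 0.85 and Gzmd by 3.76 ± 1.01, and the call of Gzmd (edgeR adjusted p = 0.0185) was lost without vehicle replicate 3 (0.0522), without entinostat replicate 1 (0.0616) and with DESeq2 (adjusted p = 0.0601). Without vehicle replicate 1 the log2 fold changes of Gzmc, Gzmd, Gzme and Gzmf were 4.23, 6.51, 6.78 and 7.29. These 4 genes are near-identical in sequence, so reads may have been split between them and their separate counts are uncertain. Among regulators of the granules, Serpinb9, an inhibitor that protects the cell from its own granzyme B, had 264, 238, 213 and 218 CPM with vehicle and 376, 366, 541 and 385 CPM with entinostat and rose by 0.82 ± 0.12. Serpinb9b, its neighbour in the serpin cluster, rose from 16.5 ± 12.3 to 148 ± 71.0 CPM, by 3.12 ± 0.62 on the log2 scale and by 3.86 without vehicle replicate 1. Ctsc, the protease that activates granzymes, went the other way, with 271, 239.6, 284 and 258 CPM with vehicle and 156, 167, 116 and 127 CPM with entinostat, and fell by 0.87 ± 0.11 (edgeR adjusted p = 4.33e-05).

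**Figure D4:**
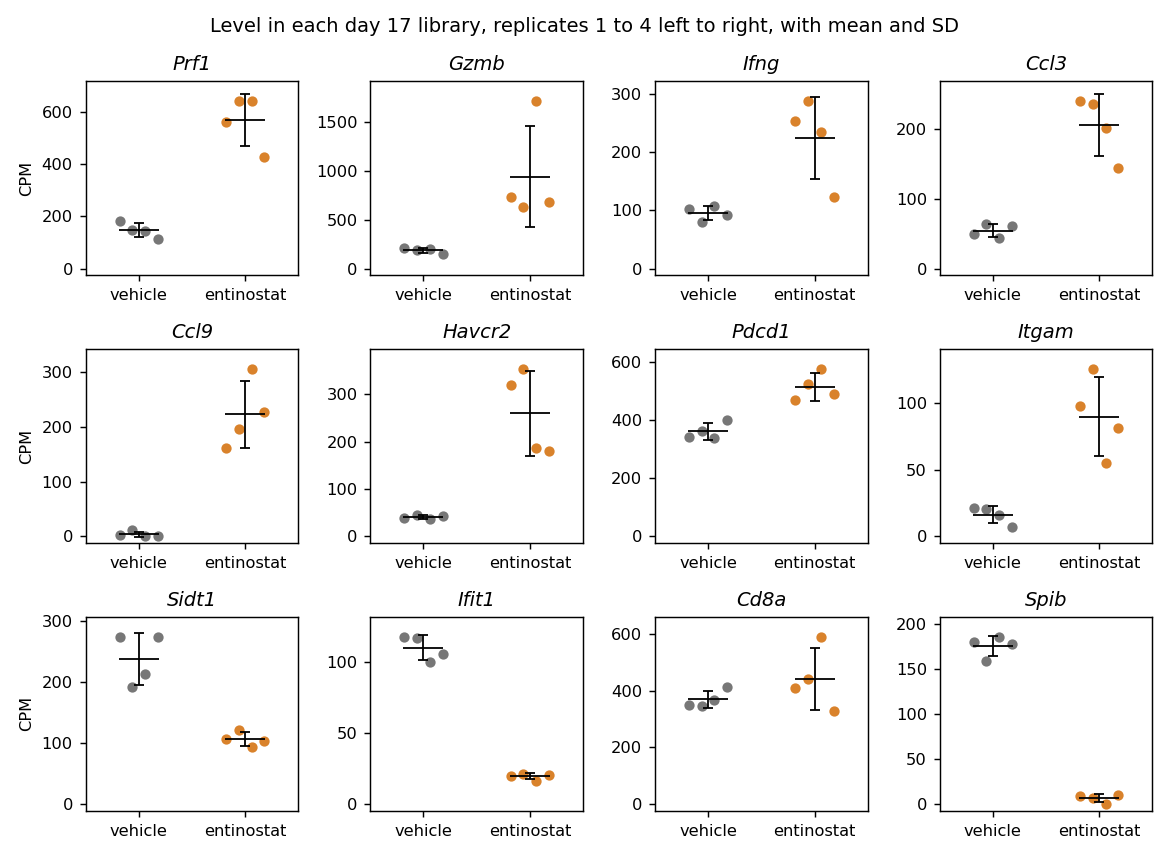
Level (CPM, linear axes of different range) of 12 genes in each of the 8 libraries, grey for vehicle and orange for entinostat, with 1 point per library, a horizontal mark for the mean and error bars of 1 SD (n = 4). Prf1, Gzmb, Ifng, Ccl3, Ccl9, Havcr2, Pdcd1 and Itgam are higher and Sidt1, Ifit1 and Spib lower with entinostat without overlap, while Cd8a overlaps.

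Chemokine genes rose in 4 of 7 cases and fell in 1 (57.1% and 14.3%, against 3.82% and 21.1% over all genes of that abundance). Which of the sorted cells carried them was not tested. In every fit 2 rises, those of Ccl9 and Ccl3, and 0 falls held. Ccl3, an inflammatory chemokine, had 49.9, 63.5, 43.5 and 60.7 CPM with vehicle and 239.6, 236, 201 and 143 CPM with entinostat, with no overlap, and rose by 1.92 ± 0.25 (edgeR adjusted p = 4.05e-05). Ccl4, another chemokine of that class, had 119.6, 163, 169.9 and 155 CPM and 255, 232, 362 and 166 CPM, and entinostat replicate 4 lay within the vehicle range. It was called at 0.71 ± 0.17 and not among the 6 libraries of nearest depth (edgeR adjusted p = 0.0885). Ccl5 was called at 0.72 ± 0.19, with its highest value in the shallow library, and was not among those 6 libraries either (edgeR adjusted p = 0.108). Cxcl10, an interferon-induced chemokine, had 25.6, 30.2, 36.3 and 28.1 CPM with vehicle and 3.54, 5.39, 9.95 and 4.75 CPM with entinostat, a log2 fold change of −2.52 ± 0.48 whose call cyclic loess ended (limma-voom adjusted p = 0.111).

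Of 13 cytokine genes 2 rose and 3 fell (23.1%, against 21.1% over all genes of that abundance), and the 2 rises and 0 falls held in every fit. Ifng, which encodes interferon gamma, had 102, 79.4, 107 and 92.2 CPM with vehicle and 253, 288, 234 and 123 CPM with entinostat. Entinostat replicate 4 was lowest among the treated libraries and still above all vehicle libraries, and the log2 fold change was 1.23 ± 0.20 (edgeR adjusted p = 4.56e-04). Lta, lymphotoxin alpha of the TNF family, rose by 1.30 ± 0.24, from 31.8 ± 5.46 to 76.9 ± 32.4 CPM. Il16, a chemoattractant made as an inactive precursor, fell by 0.45 ± 0.09. Without vehicle replicate 1 or entinostat replicate 1, 1 cytokine gene was called lower. Csf1, the macrophage growth factor, had 194, 202, 193 and 87.8 CPM with vehicle and 414, 483, 158 and 243 CPM with entinostat, overlapped, and was not called at 0.97 ± 0.45 (edgeR adjusted p = 0.138). It passed in 5 alternatives, among them the fit of the 8 day 17 libraries alone (edgeR adjusted p = 0.0497).

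Inhibitory receptors moved in both directions. Of 22 genes 7 rose and 6 fell (31.8% and 27.3%, against 3.82% and 21.1% over all genes of that abundance). The median was −0.24, near the −0.20 of those genes, and 5 rises and 4 falls held in every fit. Havcr2, which encodes the inhibitory receptor TIM-3 (chromosome 11, 46454931 to 46481255, Entrez 171285), had 39.0, 46.1, 37.8 and 43.6 CPM with vehicle and 319, 354, 187 and 179 CPM with entinostat. Each entinostat value was more than that of any vehicle library, with replicates 1 and 2 higher than replicates 3 and 4, and the log2 fold change was 2.66 ± 0.20 (edgeR adjusted p = 2.76e-07). Pdcd1, which encodes PD-1, had 342, 365, 338 and 403 CPM and 469, 526, 577 and 491 CPM and rose by 0.51 ± 0.10 (edgeR adjusted p = 0.00214). Ctla4, a competitor of the costimulator CD28, had 253, 233, 244 and 258 CPM and 377, 384, 499 and 324 CPM and rose by 0.67 ± 0.12, and for neither of these receptors did the groups overlap. Entpd1, the ectonucleotidase CD39, and Klrg1 were the other rises held in every fit. Btla, a lymphocyte attenuator, fell from 181 ± 34.4 to 61.4 ± 9.19 CPM, Nrp1, which binds semaphorins, fell by 0.93 ± 0.12 and Ptger4, the EP4 receptor for prostaglandin, fell by 1.32 ± 0.18. Lair1, a collagen receptor, fell by 2.22 ± 0.23, and it counts among the plasmacytoid dendritic cell markers too.

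Among 31 transcription factors of effector and exhausted cells 5 rose and 11 fell (16.1% and 35.5%, against 3.82% and 21.1% over all genes of that abundance). The median was −0.29, and 3 rises (Id2, Prdm1 and Tbx21) and 5 falls held in every fit. Id2, an inhibitor of E proteins that effector cells need, had 208, 245, 252 and 225 CPM with vehicle and 363, 378, 599 and 337 CPM with entinostat, without overlap, and rose by 0.83 ± 0.14 (edgeR adjusted p = 5.43e-04). Prdm1 and Tbx21 encode Blimp-1 and T-bet, factors of effector differentiation. Klf3, a zinc finger repressor, fell from 180.3 ± 41.7 to 76.2 ± 8.19 CPM, Runx1 fell by 1.78 ± 0.25 and Zeb1, a repressor of epithelial and lymphoid genes, fell by 0.81 ± 0.14. Runx2 and Irf8 also fell, and both are on the plasmacytoid dendritic cell list. Tcf7, the factor of memory and progenitor exhausted cells, had 363, 374, 403 and 381 CPM with vehicle and 271, 368, 406 and 338 CPM with entinostat. Its groups overlapped, and it was not called at −0.15 ± 0.12 (edgeR adjusted p = 0.416). Tox, a factor of exhaustion, was not called either at −0.09 ± 0.19 (edgeR adjusted p = 0.77), and its sign was above 0 in 10 of the alternatives, as that of Tcf7 was in 3. The falling factors numbered 7 without vehicle replicate 4 or entinostat replicate 4.

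Of 22 genes of the naive and memory state 10 fell (45.5%, against 21.1% over all genes of that abundance), with a median of −0.50. In every fit 4 falls held, those of Sidt1, S1pr4 and Pecam1 among them. Sidt1, a transmembrane RNA transporter (chromosome 16, 44240177 to 44333212, Entrez 320007), had 275, 192, 214 and 274 CPM with vehicle and 107, 122, 94.6 and 103 CPM with entinostat. The highest entinostat library was below the lowest vehicle library, and the log2 fold change was −1.15 ± 0.14 (edgeR adjusted p = 1.75e-05). S1pr4, a sphingosine phosphate receptor, fell by 0.86 ± 0.15. S1pr1, the receptor for exit from lymph nodes, had 297, 290.1, 299 and 337 CPM and 208, 196, 242 and 177 CPM and fell by 0.59 ± 0.12 (edgeR adjusted p = 0.00297), a call lost in 2 alternatives, 1 of them the fit of only genes of at least 16 CPM (0.0532). The summed plasmacytoid dendritic cell markers were lower in the same libraries (953.9 to 1148 CPM against 3629 to 4357 CPM), and their part in these falls was not tested.

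Of 14 chemokine and tissue-homing receptors 2 rose and 7 fell (14.3% and 50%, against 3.82% and 21.1% over all genes of that abundance). The median was −0.55, and 3 falls and 0 rises held in every fit. Ccr9, a gut-homing receptor that is also a plasmacytoid dendritic cell marker, fell from 344 ± 32.3 to 48.2 ± 3.67 CPM. Cxcr4, which holds cells in bone marrow and stroma, had 149, 157, 119 and 147 CPM with vehicle and 55.6, 60.6, 82.9 and 75.3 CPM with entinostat, without overlap, and fell by 1.10 ± 0.15 (edgeR adjusted p = 8.73e-05). Gpr183, an oxysterol receptor that positions lymphocytes, fell by 0.52 ± 0.09. Cxcr6, a receptor of tissue-resident T cells, was not called at 0.22 ± 0.15 and passed without entinostat replicate 4 (edgeR adjusted p = 0.0379). The 2 rises were both lost without entinostat replicate 1, and 1 was lost without vehicle replicate 1, vehicle replicate 4, entinostat replicate 2 or entinostat replicate 3.

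Integrins showed 2 rises and 3 falls among 16 genes (18.8% lower, against 21.1% over all genes of that abundance), and both rises and 2 falls, those of Itgae and Itga4, held in every fit. Itgam, the CD11b chain of complement receptor 3 (chromosome 7, 128062640 to 128118491, Entrez 16409), had 21.2, 20.4, 16.2 and 7.20 CPM with vehicle and 97.7, 126, 54.7 and 81.8 CPM with entinostat. The lowest entinostat library was well above the highest vehicle library. The log2 fold change was 2.47 ± 0.33 (edgeR adjusted p = 5.28e-05). Itgam is also carried by myeloid cells. Of the 11 myeloid markers of at least 16 CPM it was the only rise, 8 fell, and Cebpb and Lyz2 were not called. The part of myeloid cells in the rise of Itgam was not tested. Itgav, the integrin alpha V chain, rose by 1.01 ± 0.16, from 148 ± 18.7 to 293 ± 73.4 CPM. Itgae, the CD103 chain that binds E-cadherin, had 183, 121, 294 and 183 CPM and 67.2, 20.5, 68.0 and 55.0 CPM and fell by 1.96 ± 0.34 (edgeR adjusted p = 6.01e-04). Itga4, a chain of the receptor for VCAM-1, fell by 0.86 ± 0.14. Without entinostat replicate 4 the rises numbered 5.

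Of 15 natural killer receptor genes 7 rose and 3 fell (46.7% and 20%, against 3.82% and 21.1% over all genes of that abundance). The median was 0.40, and 4 rises (Styk1, Klrc1, Klrg1 and Klre1) and 2 falls (Tyrobp and Fcer1g) held in every fit. Styk1, a receptor-like kinase of cytotoxic lymphocytes, had 23.8, 18.5, 18.5 and 17.8 CPM with vehicle and 173, 141, 96.2 and 52.2 CPM with entinostat, so that every entinostat library lay above the vehicle range. It rose by 2.55 ± 0.32 (edgeR adjusted p = 3.11e-05). Klrc1, which encodes the inhibitory receptor NKG2A, had 192, 183, 176 and 203 CPM and 324, 325, 488 and 233 CPM and rose by 0.84 ± 0.15, and Klrg1, a receptor of short-lived effector cells, by 1.57 ± 0.35. The signalling adaptors went the other way: Tyrobp fell from 148 ± 22.6 to 17.5 ± 5.41 CPM and Fcer1g from 68.0 ± 11.1 to 10.4 ± 1.94 CPM, and both are on the myeloid list. Without vehicle replicate 3 the rises numbered 4.

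Of 29 cytokine receptors and their regulators 5 rose and 8 fell (17.2% and 27.6%, against 3.82% and 21.1% over all genes of that abundance), and 2 rises and 4 falls held in every fit. The summed level of the list overlapped between the groups, at 5884 to 6571 CPM with vehicle and 5587 to 6873 CPM with entinostat. The plasmacytoid dendritic cell markers summed to 3629 to 4357 CPM with vehicle and to 953.9 to 1148 CPM with entinostat, and their part in the falls was not tested. Both rises that held were interleukin 2 receptor chains. Il2rb, the chain shared by the receptors of interleukins 2 and 15, had 449, 527, 514 and 542 CPM with vehicle and 798, 791, 1019 and 721 CPM with entinostat, without overlap, and rose by 0.71 ± 0.12 (edgeR adjusted p = 3.76e-04). Il2ra, the chain that gives high affinity for interleukin 2, had 104, 43.4, 109 and 108 CPM and 290.4, 227, 151 and 151 CPM and rose by 1.19 ± 0.23. In every fit Ifnar2, a chain of the type I interferon receptor, fell, from 234 ± 21.4 to 117 ± 24.2 CPM with the scaling used. Of the other falls that held, Ifngr2 of the interferon gamma receptor fell by 1.34 ± 0.21, Il10rb of the interleukin 10 receptor fell by 0.64 ± 0.12 and Tgfbr1, the signalling receptor for TGF-beta, fell by 1.34 ± 0.18. The rises numbered 2 without any 1 of vehicle replicates 2, 3 and 4 or entinostat replicates 1 and 2.

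Tnfrsf9, the costimulatory receptor 4-1BB, had 225, 206, 229.8 and 229 CPM with vehicle and 432, 429.7, 463 and 335 CPM with entinostat and rose by 0.89 ± 0.12 (edgeR adjusted p = 4.05e-05), without overlap. Tnfrsf25, the death receptor DR3, had 36.0, 33.6, 23.4 and 43.9 CPM and 4.18, 2.15, 4.98 and 4.41 CPM and fell by 3.20 ± 0.31. Of the 24 genes of the TNF receptor family and costimulation 2 rose and 6 fell (8.33% and 25%, against 3.82% and 21.1% over all genes of that abundance), with a summed level of 4850 to 5304 CPM with vehicle and 4419 to 6103 CPM with entinostat. The dendritic cell markers given for the cytokine receptors were lower in the same libraries, and their part was not tested here either. In every fit 1 rise, that of Tnfrsf9, and 2 falls, those of Tnfrsf25 and Tnfaip8, held, and the falls numbered 2 to 10 when single libraries were left out. They were 2 without vehicle replicate 1 or entinostat replicate 4, 3 without vehicle replicate 3, entinostat replicate 1 or entinostat replicate 3, and 10 without entinostat replicate 2, and the rises were 4 without entinostat replicate 4. For the T cell receptor complex and its signalling chain, 25 of 31 genes were not called, 1 rose and 5 fell. Those were 3.23% and 16.1%, against 3.82% and 21.1% over all genes of that abundance. The median was 0.05, and 2 falls held in every fit. Sla2, an adaptor that lowers receptor signalling, fell by 0.62 ± 0.11. With only genes of at least 16 CPM fitted 11 of the 31 were called higher, and 8 were without entinostat replicate 4, 6 without vehicle replicate 4 and 2 without vehicle replicate 1, entinostat replicate 2 or entinostat replicate 3. The 5 falls were 3 without vehicle replicate 1, entinostat replicate 3 or entinostat replicate 4.

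Of 32 immediate early genes, which respond within minutes to receptor signals and to cell handling, 7 fell, or 21.9%, about the 21.1% found over all genes of that abundance, and 3 falls held in every fit. Ier5, a regulator of heat shock factor, fell from 215 ± 20.4 to 127 ± 17.9 CPM and Fosl2, a partner in the AP-1 factor, fell by 0.71 ± 0.11. Jun fell by 0.78 ± 0.17, a call that cyclic loess ended (limma-voom adjusted p = 0.0614). Without entinostat replicate 4, 2 of them were called higher, and 1 was without vehicle replicate 3 or vehicle replicate 4. Of 18 TGF-beta pathway genes 6 fell (33.3%, against 21.1% over all genes of that abundance), and 2 of these (Smad3 and Tgfbr1) held in every fit. Smad3, a mediator of the pathway, went from 115 ± 17.5 to 64.8 ± 9.39 CPM. Among 26 genes of cAMP, adenosine, prostaglandin and G protein signalling 1 rose and 10 fell (3.85% and 38.5%, against 3.82% and 21.1% over all genes of that abundance). In every fit 1 rise and 4 falls held, and the falls numbered 6 without vehicle replicate 1 or entinostat replicate 4. Rgs16, a brake on G protein signalling, had 184, 153, 138 and 138 CPM with vehicle and 420.2, 464, 290.3 and 285 CPM with entinostat and rose by 1.26 ± 0.17 (edgeR adjusted p = 5.54e-05). Rgs18, another member of that family, fell from 39.5 ± 8.32 to 3.84 ± 1.11 CPM. Without vehicle replicate 4 or entinostat replicate 4 the rises were 2.

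**Figure D5:**
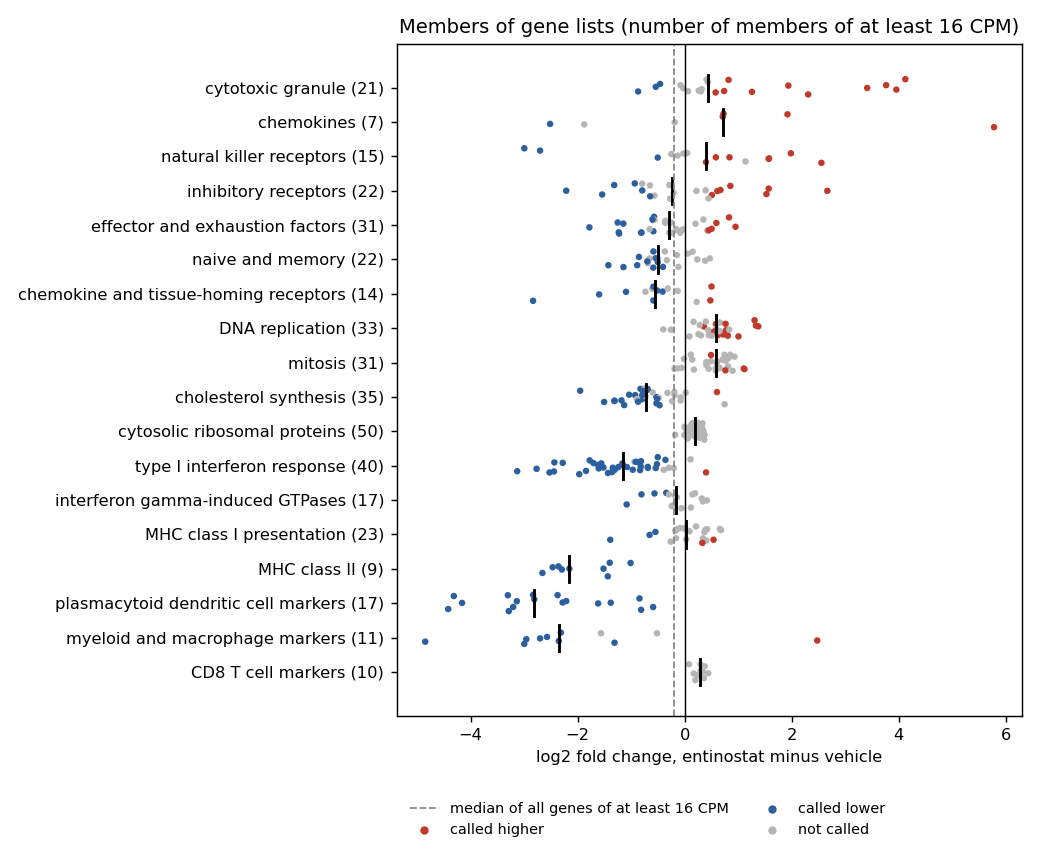
Log2 fold change of each gene of at least 16 CPM on 18 lists, 1 point per gene, red for called higher, blue for called lower and grey for not called, with a black bar at the median of each list and a dashed line at the median of all 10082 genes. All 17 plasmacytoid dendritic cell markers and all 9 MHC class II genes lie on the lower side, and the 50 ribosomal protein genes lie close to 0.

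Of 33 DNA replication genes 16 rose and 31 had a log2 fold change above 0. The share that rose was 48.5% and the median 0.58, against 3.82% and −0.20 over all genes of that abundance. In every fit 9 rises held (Mcm3, Mcm4, Mcm5, Mcm6, Mcm7, Rrm1, Rrm2 and Uhrf1 among them), with 11 to 26 rises over the alternatives. Mcm4, a subunit of the replicative helicase (chromosome 16, 15623897 to 15637400, Entrez 17217), had 207, 174, 205 and 146 CPM with vehicle and 274, 259, 239 and 265 CPM with entinostat, without overlap, and rose by 0.51 ± 0.11 (edgeR adjusted p = 0.0031). Mcm6 and Mcm3, from the same complex, rose by 0.62 ± 0.13 and 0.66 ± 0.16. Rrm2, of the ribonucleotide reductase that supplies deoxynucleotides, had 87.6, 64.6, 83.6 and 60.7 CPM and 187, 123, 138 and 147 CPM and rose by 1.00 ± 0.22. Uhrf1, which carries DNA methylation through replication, rose by 0.76 ± 0.18. Vehicle replicate 1 was the highest vehicle library for each of these 5 genes, and the lowest entinostat library lay above it.

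Of 31 mitosis genes 6 rose (19.4%, against 3.82% over all genes of that abundance), 27 had a log2 fold change above 0 and the median was 0.59. The number called ran from 1 to 21 over the alternatives. Top2a, the topoisomerase that untangles chromosomes, had 164, 120.4, 132 and 80.2 CPM with vehicle and 244, 203, 179 and 238 CPM with entinostat, rose by 0.81 ± 0.20 (edgeR adjusted p = 0.011) and was the single rise held in every fit. Bub1b, a spindle checkpoint kinase, rose by 1.10 ± 0.29, a call lost without entinostat replicate 1 (edgeR adjusted p = 0.0612). The 6 rises were 1 without entinostat replicate 1, 2 without vehicle replicate 2 or 3, and 3 without vehicle replicate 4 or entinostat replicate 4. Cdkn1b, the cyclin-dependent kinase inhibitor p27, had 102, 61.1, 99.1 and 105 CPM with vehicle and 39.9, 54.7, 14.9 and 42.4 CPM with entinostat and fell by 1.16 ± 0.24 (edgeR adjusted p = 0.0023). Ccnd2, a cyclin of the G1 phase, fell by 0.53 ± 0.11. Cdkn1a, the inhibitor p21, whose gene HDAC inhibitors raise in many cell lines, had 67.5, 57.2, 82.4 and 54.5 CPM and 98.1, 88.0, 63.0 and 86.8 CPM, overlapped, and was not called at 0.39 ± 0.21 (edgeR adjusted p = 0.204). It passed where only genes of at least 16 CPM were fitted (edgeR adjusted p = 0.0414) and with cyclic loess (limma-voom adjusted p = 0.0408).

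Among 16 targets of the tumour suppressor p53, 4 fell, or 25%, near the 21.1% over all genes of that abundance. Sesn2 and Sesn1, stress sensors that restrain growth signalling, fell from 60.0 ± 10.7 to 22.8 ± 4.74 CPM and from 65.9 ± 5.70 to 31.7 ± 5.42 CPM, and both calls held in every fit. Gadd45a, a growth arrest gene, fell by 1.30 ± 0.29. Bcl2, which protects lymphocytes from death, had 318, 255, 275 and 457 CPM with vehicle and 168, 186, 231 and 164 CPM with entinostat, with its highest value in vehicle replicate 4, and fell by 0.82 ± 0.17 (edgeR adjusted p = 0.00303).

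Of 35 genes of cholesterol and lipid synthesis 21 fell and 1 rose (60% and 2.86%, against 21.1% and 3.82% over all genes of that abundance). The median was −0.73, and 8 falls held in every fit. Srebf2, the transcription factor that turns on the pathway when sterols are low (chromosome 15, 82147269 to 82205379, Entrez 20788), had 376, 353, 435 and 328 CPM with vehicle and 229, 211, 178 and 215 CPM with entinostat. The groups did not overlap, and the log2 fold change was −0.83 ± 0.12 (edgeR adjusted p = 1.81e-04). Scap, the escort that carries this factor to the Golgi, fell by 0.75 ± 0.13 and Insig1, the protein that retains it, fell by 1.31 ± 0.23. Of the enzymes, Mvd of the mevalonate pathway fell from 45.4 ± 10.7 to 17.9 ± 2.42 CPM, and Fads2, a fatty acid desaturase, had 80.6, 66.2, 93.9 and 59.7 CPM and 13.8, 12.1, 19.9 and 32.2 CPM and fell by 1.95 ± 0.37. The falls numbered 11 without vehicle replicate 3 and 13 without entinostat replicate 2, and 10 among the 6 libraries of nearest depth or with cyclic loess. The summed level of the list was 4554, 4308, 5733 and 3486 CPM in vehicle replicates 1 to 4 and 2880 to 3296 CPM with entinostat. The conventional dendritic cell markers summed to 989, 1050, 1462 and 609.7 CPM in the same vehicle libraries and to 295.8 to 343.6 CPM with entinostat. Both sums were highest in vehicle replicate 3, lowest among the vehicle libraries in replicate 4, and lower in all 4 entinostat libraries, and the part of dendritic cells in these falls was not tested.

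Glycolysis and hypoxia genes rose in 7 of 30 cases and fell in 3 (23.3% and 10%, against 3.82% and 21.1% over all genes of that abundance). The median was 0.25, and 2 rises and 0 falls held in every fit. The rises that held were Hilpda, a hypoxia-induced lipid droplet protein, from 51.8 ± 10.3 to 104 ± 19.1 CPM, and the glycolytic enzyme Pgk1, from 169.9 ± 14.5 to 237 ± 29.0 CPM. Ldha, lactate dehydrogenase A, had 319, 429.9, 432 and 448 CPM with vehicle and 514, 457, 1151 and 531 CPM with entinostat. The shallow library held a value more than that of any other by a wide margin, and the call at 0.68 ± 0.21 (edgeR adjusted p = 0.0355) was lost without it (0.0912), without vehicle replicate 1 (0.0949) or vehicle replicate 3 (0.0602), and in 4 other alternatives. The 7 rises were 3 without vehicle replicate 3, 4 without vehicle replicate 1 or entinostat replicate 3, and 11 without entinostat replicate 2. Among the 6 libraries of nearest depth 2 rises and 0 falls were called, and with cyclic loess 15 rises and 0 falls. The 3 falls were 0 without vehicle replicate 1, vehicle replicate 3 or entinostat replicate 4, and 1 without vehicle replicate 2, entinostat replicate 1 or entinostat replicate 3. Of 50 cytosolic ribosomal protein genes 0 were called by edgeR, 47 had a log2 fold change above 0 and the median was 0.20. At an unadjusted p under 0.05 edgeR gave 6 of them, DESeq2 called 4 and limma-voom 0, and the most in any alternative was 5, with library size alone among others. Without vehicle replicate 4 it was 2 and without entinostat replicate 2 it was 3.

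Of 15 genes of the drug's target family and its relatives 1 rose and 3 fell (6.67% and 20%, near the 3.82% and 21.1% over all genes of that abundance), and no call held in every fit. Of the class I enzymes, Hdac1 had 123, 116, 124 and 87.8 CPM with vehicle and 146, 144, 164 and 142 CPM with entinostat, so that its groups did not overlap. It rose by 0.39 ± 0.11 (edgeR adjusted p = 0.0217) and was not called with no low count filter (0.0603) or among the 6 libraries of nearest depth (0.06). Hdac2 was not called at 0.09 ± 0.11, nor were Hdac3 at −0.20 ± 0.12 and Hdac8 at 0.41 ± 0.25, and the log2 fold change of Hdac3 turned to 0.05 with cyclic loess. Hdac10, a polyamine deacetylase, fell from 72.5 ± 13.9 to 37.5 ± 9.19 CPM and Sirt7, a sirtuin of the nucleolus, fell by 0.53 ± 0.12, a call that cyclic loess ended (limma-voom adjusted p = 0.0562). Of 34 acetyltransferase, bromodomain and corepressor genes 1 rose and 11 fell (2.94% and 32.4%, against 3.82% and 21.1% over all genes of that abundance). In every fit 1 fall held, that of Chd3, a helicase of the NuRD corepressor. It had 264, 143, 195 and 189 CPM with vehicle and 98.1, 134, 66.4 and 82.4 CPM with entinostat and fell by 1.01 ± 0.20 (edgeR adjusted p = 0.00214). Brd3, a reader of acetylated histones, fell by 0.88 ± 0.20, a call lost among the 6 libraries of nearest depth (edgeR adjusted p = 0.0511). The 11 falls were 3 without entinostat replicate 4, 4 without vehicle replicate 1 or entinostat replicate 1, and 5 without vehicle replicate 3 or entinostat replicate 3.

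Genes of the type I interferon response fell in most cases. Type I interferons bind a receptor found on nearly all cells and act through a complex of transcription factors that binds the interferon-stimulated response element in promoters of antiviral genes. Of 40 genes of at least 16 CPM 34 fell (85%, against 21.1% over all genes of that abundance), 1 (Ly6e) rose, and the median was −1.15 on the log2 scale, and 27 falls held in every fit. The summed level of the list was 5147 to 5447 CPM with vehicle and 2700 to 3429 CPM with entinostat. The plasmacytoid dendritic cell markers fell in the same libraries, with a median of −2.81, Bst2 is on both lists, and their part in the fall of these genes was not tested. The rise of Ly6e was lost without vehicle replicate 1 or entinostat replicate 3.

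The response element was looked for as 2 copies of GAAA with any 2 bases between them, on both strands and with overlapping matches counted, in the 250 bases before the transcript starts of a table made from RefSeq (GRCm38.p6). The table holds 32851 starts of 27025 genes, so some genes had more than 1 window searched, and a start need not be the first base of its gene. The element was found before 936 of the 27025 genes (3.46%), before 284 of the 8149 matched genes of at least 16 CPM (3.49%), and before 65 of 1727 of these called lower (3.76%) and 13 of 299 called higher (4.35%). Among the 28 interferon response genes with a promoter there, 13 held it (46.4%), and all 13 were among the 25 called lower. Only 3 of the 28 were not called lower (0 held it), too few to relate the element to the fall. The 3 promoters printed here, chosen after their matches were seen, belong to genes of the list that were called lower in every fit and held at least 2 matches, and show the element in its separate and its overlapping form. Each is written 5′ to 3′ on the strand of its gene, and capitals mark the matches.
Ifit1 (chr19:34640639-34640888, plus strand): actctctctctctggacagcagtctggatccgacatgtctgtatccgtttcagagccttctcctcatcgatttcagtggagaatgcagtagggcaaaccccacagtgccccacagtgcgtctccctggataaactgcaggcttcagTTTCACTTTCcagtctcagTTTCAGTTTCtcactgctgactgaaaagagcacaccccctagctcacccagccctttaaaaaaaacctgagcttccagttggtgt
Ifit3 (chr19:34583279-34583528, plus strand): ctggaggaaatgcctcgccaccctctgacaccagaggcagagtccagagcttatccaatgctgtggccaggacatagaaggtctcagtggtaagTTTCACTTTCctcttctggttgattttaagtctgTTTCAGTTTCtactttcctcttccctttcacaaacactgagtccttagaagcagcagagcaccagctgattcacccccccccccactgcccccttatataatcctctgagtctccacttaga
Isg15 (chr4:156200819-156201068, minus strand): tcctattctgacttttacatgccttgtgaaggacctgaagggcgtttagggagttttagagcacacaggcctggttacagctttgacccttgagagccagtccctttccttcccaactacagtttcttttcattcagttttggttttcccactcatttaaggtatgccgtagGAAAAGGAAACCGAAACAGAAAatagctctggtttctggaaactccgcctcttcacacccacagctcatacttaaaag
The window of Ifit3 lies inside its gene, whose annotated span begins at 34583119. In Ifit1 the matches begin 104 and 85 bases before the transcript start and in Ifit3 156 and 122 bases before it, and all 4 read on the opposite strand. In Isg15 3 matches overlap in 1 run that begins 78 bases before the start. A match is a description of these letters and not a measured binding site.

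Ifit1, an RNA-binding antiviral protein (chromosome 19, 34640889 to 34650009, Entrez 15957), had 117, 116, 99.9 and 105 CPM with vehicle and 19.9, 21.5, 16.6 and 20.4 CPM with entinostat. Vehicle values lay near each other and far above the entinostat values, and the log2 fold change was −2.44 ± 0.20 (edgeR adjusted p = 5.24e-07). Ifit3, its partner protein, had 68.8, 84.4, 81.8 and 61.7 CPM and 12.9, 10.8, 4.98 and 11.2 CPM and fell by 2.77 ± 0.24, and its reads may be shared with the near-identical Ifit3b. Bst2, the tetherin that holds budding virus at the cell surface, had 110.4, 136, 147 and 135 CPM and 42.1, 45.2, 43.1 and 41.4 CPM and fell by 1.62 ± 0.12 (edgeR adjusted p = 2.94e-07). Irf7, the factor that amplifies interferon production and that plasmacytoid dendritic cells carry at a high level, fell from 235 ± 19.8 to 70.4 ± 15.9 CPM. Rtp4, a chaperone of membrane receptors, fell from 71.0 ± 3.99 to 19.8 ± 3.05 CPM.

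Of 17 GTPases and related genes that interferon gamma induces 13 were not called and 4 fell, or 23.5%, with a median of −0.16, near the 21.1% and −0.20 over all genes of that abundance, and no call held in every fit. Gvin1, a very large GTPase, fell from 469.7 ± 67.2 to 263 ± 95.0 CPM. Gbp4, a guanylate-binding protein, had 370.2, 379.9, 388 and 427 CPM and 457, 527, 466 and 339 CPM and was not called at 0.19 ± 0.12. It passed without entinostat replicate 4 (edgeR adjusted p = 0.0471), where only genes of at least 16 CPM were fitted (0.0476) and with cyclic loess (limma-voom adjusted p = 0.0331). The 4 falls were 2 without vehicle replicate 2, 3 or 4 or entinostat replicate 1, and 1 without entinostat replicate 4, where 2 genes were called higher. The difference between this list and the type I list was not tested.

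MHC class I genes, which every nucleated cell carries, had a median of 0.03, with 2 of 23 called higher and 3 lower. Those were 8.7% and 13%, against 3.82% and 21.1% over all genes of that abundance. In every fit 0 rises and 2 falls (H2-T24 and Tapbpl) held. H2-D1, a classical class I heavy chain, had 406, 553, 564 and 678 CPM with vehicle and 633, 605, 1664 and 626 CPM with entinostat. The shallow library stood far above the rest, the groups overlapped, and the gene was not called at 0.66 ± 0.26 (edgeR adjusted p = 0.0857) but was without entinostat replicate 2 (0.0405), and its log2 fold change was 0.05 among the 6 libraries of nearest depth. H2-T24, a non-classical class I gene, fell from 73.9 ± 7.70 to 29.5 ± 8.17 CPM, and Tapbpl, an editor of class I peptides, fell by 0.66 ± 0.11. H2-Q10, a secreted class I form, rose by 0.54 ± 0.13, and reads of H2 genes can be shared between near-identical members. The 2 rises were 1 without vehicle replicate 1 or entinostat replicate 3, 6 without entinostat replicate 2 and 4 without entinostat replicate 4.

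MHC class II genes, which professional antigen-presenting cells carry and mouse T cells largely lack, fell in all 9 of 9 cases. Over all genes of at least 16 CPM 21.1% were called lower. The median of the class II genes was −2.16, and 7 falls held in every fit. H2-Aa, an alpha chain, had 157, 209, 263 and 197 CPM with vehicle and 37.9, 35.8, 43.1 and 51.9 CPM with entinostat, without overlap, and fell by 2.30 ± 0.30 (edgeR adjusted p = 4.32e-05). Cd74, the invariant chain, fell by 1.52 ± 0.23, H2-Eb1 fell by 2.36 ± 0.38, H2-Ab1 fell by 1.44 ± 0.24 and H2-DMa, which helps to load peptides, fell by 1.40 ± 0.21. The summed level of the list was 1007 to 1571 CPM with vehicle and 331.8 to 445.7 CPM with entinostat, beside which the plasmacytoid dendritic cell markers stood at 3629 to 4357 CPM and at 953.9 to 1148 CPM and the conventional dendritic cell markers at 609.7 to 1462 CPM and at 295.8 to 343.6 CPM. The part of these cells in the fall of class II genes was not tested.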

How the data were processed

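RNA of the sorted cells was amplified with the SMART-seq v4 kit and made into Nextera XT libraries, per the labels' protocols, a preparation that keeps neither strand nor molecular identifiers. Reads were aligned with STAR to mm10, per the submitters' processing notes, and the deposited values are whole-number counts per gene. For the counting program and the annotation, the sources used here give nothing. Gene positions and promoters came from RefSeq (GRCm38.p6), matched by Entrez identifier for 23968 genes. Exon lengths, used for reads per kilobase, came from a GENCODE annotation of GRCm38, matched by Entrez identifier or else by symbol.

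Counts of all 16 libraries were fitted with edgeR 4.0.16 in R 4.3.3: TMM scaling, filterByExpr with a minimum count of 10, a mean for each of 4 groups, the quasi-likelihood test and Benjamini-Hochberg adjustment over 17414 genes. An SE is the log2 fold change divided by the square root of F. CPM use TMM library sizes, values are mean ± SD of 4 libraries, and counting error grows as totals shrink to 554593. Alternatives used DESeq2 1.42.0 and limma 3.58.1. The test was checked on simulated counts, in which 200 of 16628 genes were changed, as many up as down. There edgeR recovered 26.9% of 1.5-fold, 65.7% of 2-fold and 92.4% of 4-fold changes, with 3 false calls. A gene not called may thus still differ. The real calls were more numerous and mostly lower, so these rates need not hold for them. No replicates differed by as little as sampling noise: the smallest chi-square per degree of freedom between replicates was 4.07.

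The genes and lists were chosen with earlier results of these data known. Named genes are the 10 largest non-overlapping rises and falls, the 6 largest CPM differences each way, up to 5 genes of smallest p per list with its most abundant uncalled member, and a fixed set (among them Cd8a, Cd4, the class I deacetylases, Cdkn1a, Tcf7 and Tox), less receptor segments and unnamed models. Not all of them are printed.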

Additional observations from a re-analysis of the deposited data

Results flagged for a closer look

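For 24 of 290 sets of 4 library values (8.28%, where chance flags about 5%), 1 library lay far from the other 3. Entinostat replicate 3, the shallow library, did so in 8 of them, vehicle replicate 1, the deepest, in 6, vehicle replicate 2 in 4, and the other libraries in at most 2 each.

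In entinostat replicate 3, Gzmb stood at 1719 CPM (the others at 629 to 736.7), H2-D1 at 1664 CPM (605.3 to 633.4), Ldha at 1151 CPM (456.7 to 530.5), Id2 at 598.9 CPM (337.2 to 378), Serpinb9 at 540.8 CPM (365.9 to 384.7), Ccl5 at 409.7 CPM (185.2 to 217), H2-Q10 at 136 CPM (86.43 to 93.25) and Cdh22 at 6.636 CPM (0.8078 to 1.608). All 8 were the high value of their group.

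In vehicle replicate 1 the granzymes Gzmf, Gzme and Gzmd stood at 34, 22.72 and 16.7 CPM, where no other vehicle library passed 2.743 CPM. Styk1 and Klrg1 both stood at 23.77 CPM there (others 17.83 to 18.53 and 11.38 to 13.37), and Ldha was low at 319.2 CPM (429.9 to 447.5).

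Vehicle replicate 2 was low for Runx2 at 305.2 CPM (355.9 to 366.3), Il2ra at 43.41 CPM (103.7 to 108.9) and Cdkn1b at 61.15 CPM (99.08 to 104.6), and high for Rtp4 at 77.03 CPM (68.9 to 69.27). Vehicle replicate 3 was high for Csf2rb2 at 456 CPM (351.2 to 366.1) and Hdac3 at 135.6 CPM (117.3 to 118.4). Vehicle replicate 4 was low for Csf1 at 87.79 CPM (193 to 202.2) and high for Gvin1 at 570.3 CPM (431.7 to 439.8). Entinostat replicate 2 was high for Btla at 75.12 CPM (56.4 to 57.23), and entinostat replicate 1 was low for Psap at 246.3 CPM (283.8 to 290.3).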

How the results depend on the processing

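Depth limits genes of few counts and most of all entinostat replicate 3. Of the alternatives, cyclic loess, the fit of genes above the level of receptor genes and that of the 6 libraries of nearest depth (without entinostat replicate 3 and vehicle replicate 1) were chosen after seeing the data. Genes of at least 16 CPM called higher (385 with edgeR) numbered 802 with DESeq2, 668 with limma-voom and sample weights, 604 with RLE scaling, 766 with library size alone, 895 with a minimum count of 50, 995 where only genes of at least 16 CPM were fitted, 1033 with cyclic loess, 635 where genes above the receptor level were fitted, 241 at nearest depth and 244 to 403 when single libraries were left out. Those called lower (2131) numbered 1358 with library size alone, 1408 with a minimum count of 50, 1402 with the 8 day 17 libraries alone, 1354 with genes of at least 16 CPM fitted, 949 with cyclic loess, 1211 at nearest depth and 1275 to 2040 without single libraries. In total (2516) there were 1452 at nearest depth and 1610 to 2424 without single libraries.

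The next counts are over all genes that each fit tested. These were 17414 in the fit used, 11401 with a minimum count of 50, 16017 with the 8 libraries alone and 10083 with genes of at least 16 CPM fitted. They were 17707 at nearest depth and 17717 to 18080 without single libraries. Those higher (922) numbered 1745 with DESeq2, 2119 with limma-voom, 373 at nearest depth and 437 to 1158 without single libraries. Those lower (2268) numbered 1456 with library size alone, 1461 with a minimum count of 50, 1490 with the 8 libraries alone, 1354 with genes of at least 16 CPM fitted, 1172 with cyclic loess, 1274 at nearest depth and 1356 to 2137 without single libraries. In total (3190) there were 4899 with limma-voom, 1647 at nearest depth and 1946 to 3290 without single libraries. The difference in receptor reads ran from 1052 to 2598 CPM without single libraries, with an exact permutation p of 0.0857 to 0.371. The cause of these differences was not tested.

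Same-numbered libraries of the 2 treatments had correlations of 0.179, −0.416, 0.126 and −0.0611, and differently numbered ones ran from −0.414 to 0.499. These correlations cannot decide whether the replicate numbers pair the libraries. With the replicate block within each day 2084 genes of at least 16 CPM were called. With the replicate block in the 8 day 17 libraries alone, which leaves fewer samples to set the spread, 1222 were called, 949 of them lower, and over all genes 1439, with 449 higher and 990 lower. That fit called neither Ccl5, Il16, S1pr1, Gvin1, H2-Q10, Ccnd2, Gadd45a, Bcl2, Ldha, Hdac1, Hdac10 nor Sirt7, 12 genes named in the text as called (edgeR adjusted p = 0.0511 to 0.0996).

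Log2 fold changes that changed sign belonged to 3 genes that were not called. Tcf7 had 7.74e-05 with library size alone, 0.0241 with a minimum count of 50 and 0.0472 with genes of at least 16 CPM fitted. In the same order Tox had 0.0598, 0.0779 and 0.0995. Tox had 0.00751 with DESeq2, 0.0137 with RLE scaling, 0.13 with cyclic loess, 0.0278 with genes above the receptor level, 0.0099 at nearest depth, 0.00654 without vehicle replicate 4 and 0.132 without entinostat replicate 1, and −0.229 to 0.132 over all libraries left out singly. Hdac3 had 0.0533 with cyclic loess.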

Other observations

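Calls on 5 further lists are given here, and the report gives values for Cdkn1b, Ccnd2 and Bcl2 among them. Among 17 G1 cyclins and inhibitors of cyclin-dependent kinases 23.5% were called, against 25% over all genes of that abundance: Ccne1 rose and Cdkn1b, Ccnd2 and Cdkn2d fell, and the fall of Cdkn1b held in every fit. The rise of Ccne1 was lost without vehicle replicate 2, 3 or 4 or entinostat replicate 1 or 4. Of 10 members of the BCL2 family, which sets the threshold for cell death, 40% were called and no call held in every fit: Bcl2, Bcl2l11 and Bcl2l1 fell and Bcl2a1d, whose reads may be shared with near-identical copies, rose. Without vehicle replicate 1, 1 of these falls was called. Of 39 genes of the respiratory chain Cox5a rose and Ndufa6 fell (2.56% each way, against 3.82% higher and 21.1% lower over all genes of that abundance). The call of Ndufa6 was lost without any single one of the 8 libraries and that of Cox5a without vehicle replicate 1, vehicle replicate 3 or entinostat replicate 1. Of 21 heat shock chaperones and their factor, Hsf1, Dnajb9 and Dnajb1 fell (14.3%, against 21.1% over all genes of that abundance), and the fall of Hsf1 held in every fit. Of 10 replacement histone genes H2afj fell (10%, against the same 21.1%). These calls were named after their values were seen.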
